A study of Homo sapiens with 9 samples.

Results

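The zinc finger genes of chromosome 19 were followed in A549, an established human lung adenocarcinoma cell line. Members were the rows of the count table annotated as protein-coding, placed on chromosome 19 and carrying a symbol made of ZNF, a number and at most 1 letter. This rule found 246 of the 58735 genes in the table, and they were 16.7% of the 1472 protein-coding genes of that chromosome. The rule did not use any measured value.

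The A549 cells of all 9 libraries had been transfected with a plasmid. The 3 control libraries received PC3.1, PC3.2 or PC3.3 by their labels, the 3 LINC00996 libraries overexpressed the long noncoding RNA (lncRNA) LINC00996, and the 3 AP001189.3 libraries overexpressed the lncRNA AP001189.3. The study's text describes the control as cells transfected with one and the same plasmid and handled in triplicate, so these labels were read as replicates. All groups share the A549 background and the transfection, and there was no untransfected group. No source says that the 3 libraries of a group came from separate cultures, so p-values measure only the spread between these libraries, which may be technical.

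A C2H2 zinc finger is a short fold in which a pair of cysteines and a pair of histidines hold a zinc ion, and a row of such fingers reads DNA. Many human genes of this kind also encode a KRAB domain at the start of the protein, which recruits the corepressor KAP1 (TRIM28) and, through it, the histone methyltransferase SETDB1 and HP1 proteins. Many of these KRAB zinc finger proteins bind transposable elements, and their genes lie in tandem arrays along chromosome 19 that arose by duplication.

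Translation of the GENCODE 29 coding sequences found at least 1 C2H2 finger in 245 of the 246 members, with a median of 12 and a maximum of 36 fingers. The core of the KRAB A box was found near the start of 206 proteins, and in the other 40 these letters were not found. The match is a short letter pattern, so a KRAB domain that departs from it would be missed. The KRAB members had a median GC content of 41.8% in their longest transcript and a median gene length of 5147 bases. The 40 members without a match had a median of 57.8% GC and 4075.5 bases. Over all protein-coding genes the medians were 49.1% and 4215 bases, so the KRAB members were GC-poor and long and the others GC-rich and slightly shorter.

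The coding sequence of a single finger and its linker, 84 bases long, is shown for 3 KRAB members that were lower with LINC00996 (ZNF766, ZNF350 and ZNF551) and for 3 members without a KRAB match that were higher with AP001189.3 (ZNF296, ZNF865 and ZNF787). Each is the first finger of the protein that is followed by another at the usual spacing. The fingers differ in amino acids as well as in GC content. They are from the GENCODE 29 transcripts on build GRCh38 and are written 5′ to 3′ along the coding strand. Capitals mark the codons of the 2 cysteines and 2 histidines that hold the zinc ion.
ZNF766: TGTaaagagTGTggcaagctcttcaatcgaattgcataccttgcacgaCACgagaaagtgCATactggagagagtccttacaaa
ZNF350: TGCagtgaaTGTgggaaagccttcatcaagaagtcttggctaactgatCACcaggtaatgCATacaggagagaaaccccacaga
ZNF551: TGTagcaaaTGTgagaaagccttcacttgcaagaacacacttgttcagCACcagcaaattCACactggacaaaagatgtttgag
ZNF296: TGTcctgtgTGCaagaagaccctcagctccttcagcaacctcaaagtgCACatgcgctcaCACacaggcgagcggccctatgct
ZNF865: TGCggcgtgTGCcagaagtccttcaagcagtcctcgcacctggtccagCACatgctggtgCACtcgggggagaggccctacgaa
ZNF787: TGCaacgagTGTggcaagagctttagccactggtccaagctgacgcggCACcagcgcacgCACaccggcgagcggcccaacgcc
The 84 bases are exonic and lie at chr19:52290524-52290607 on the plus strand for ZNF766, at chr19:51965748-51965831 on the minus strand for ZNF350 and at chr19:57687032-57687115 on the plus strand for ZNF551. They lie at chr19:45072249-45072332 on the minus strand for ZNF296, at chr19:55614294-55614377 on the plus strand for ZNF865 and at chr19:56088887-56088970 on the minus strand for ZNF787. Their GC contents were 44.0%, 46.4% and 41.7% in ZNF766, ZNF350 and ZNF551, against 57.1%, 63.1% and 66.7% in ZNF296, ZNF865 and ZNF787.

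Counts summed to between 15272450 and 18125447 per library, and the members took 0.188% to 0.207% of them. LINC00996 had 4373 to 5952 counts in its own group and 4 to 9 elsewhere, and AP001189.3 had 1660 to 2378 in its own group and 0 to 2 elsewhere. The epithelial markers summed to 8365 to 11163 CPM per library (counts scaled to the library total and its TMM factor), and the leukocyte list to 14.1 to 21.3 CPM. Single epithelial markers moved with the groups, CDH1 from 311.8 to 321.9 CPM in the control libraries and 280.5 to 306.5 with AP001189.3 to 161.6 to 181.8 with LINC00996, and KRT8 from 3891 to 4109 CPM in the control libraries to 4495 to 4620 with AP001189.3 and 4311 to 6119 with LINC00996. The fibroblast and endothelial sums also moved with the groups. The 4 fibroblast markers summed to 19.9 to 23.0 CPM in the control libraries, 12.1 to 15.5 with LINC00996 and 18.5 to 21.7 with AP001189.3, and COL1A1 gave nearly all of it while COL1A2 and DCN had 0 or 1 count. The 4 endothelial markers summed to 11.7 to 13.1, 5.26 to 6.50 and 7.29 to 9.58 CPM, from PECAM1 and CDH5, while VWF had 0 to 3 counts and KDR 0 or 1. PTPRC, the common leukocyte marker, also had 0 or 1 count. The leukocyte sum came nearly all from CD14, at 7.53 to 13.9 CPM, and ITGAM, at 5.21 to 8.95 CPM. What part these markers have in the results was not tested. Replicate 1 of the LINC00996 group stood apart. Its counts differed from those of replicates 2 and 3 with a chi-square of 20.1 and 29.7 per gene, against 2.21 to 6.70 for the other replicate pairs of a group. The main LINC00996 results are therefore also given without it. Fewer cells expressing a gene and less RNA per cell cannot be told apart in these bulk libraries.

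Of the 246 members, 56 had 3 or fewer counts in every library, and 37 of these had no count at all. The other 190 exceeded 3 counts in at least 1 library, and 171 passed the filter on low counts in at least 1 comparison. A filter of this kind can pass a gene through the group in which it is high. A count of 0 allows up to 3 counts per library, so these genes were not detectable at this depth rather than shown to be absent. The members were weakly expressed. FPKM, the deposited value scaled to gene length and library total, had a median of 0.727 over all members in the control group, and 113 members had a mean of at least 1. Among genes tested for LINC00996 against control, the median control FPKM was 1.40 for the 170 members and 5.02 for the 13213 other protein-coding genes.

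Detection differed between stretches of the chromosome. The members fell into 16 position clusters, numbered here from the tip of the short arm, with a new cluster wherever neighbouring gene starts lay over 1000000 bases apart. All 24 members of cluster 12 (chr19:43525497-45076588) were tested in at least 1 comparison, as were 54 of the 59 members of cluster 16 (chr19:55476332-58481230), the array nearest the tip of the long arm. By contrast, 11 of the 37 members of cluster 5 (chr19:19668796-24129961) were tested and 22 had 3 or fewer counts in every library. Cluster 3 (chr19:11483427-12640098) had 10 of 25 members tested, and cluster 15 (chr19:51571298-53580269) had 21 of 39. The median control FPKM over all members was 0 in cluster 5, 0.00623 in cluster 3, 0.120 in cluster 15, 1.09 in cluster 12 and 1.64 in cluster 16. Cluster 5 was also the most GC-poor of these arrays, with a median of 37.6%. Members without a KRAB match had a median control FPKM of 2.68 and 32 of 40 were tested, whereas the KRAB members had a median of 0.584 and 139 of 206 were tested.

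**Figure D1:**
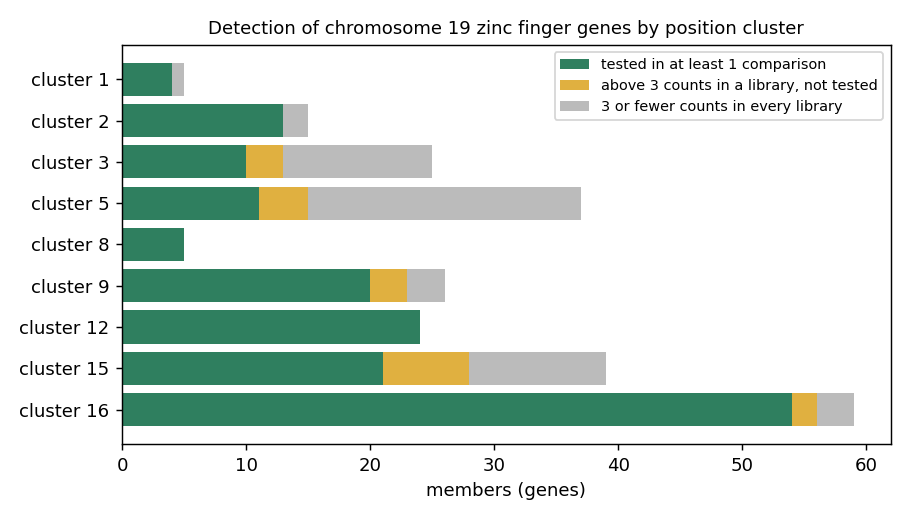
Number of members (x axis, genes) in each position cluster with at least 5 members (y axis), divided into those tested in at least 1 comparison, those above 3 counts in a library but not tested, and those with 3 or fewer counts in every library. In cluster 5, 22 of 37 members had 3 or fewer counts everywhere, while all 24 members of cluster 12 were tested.

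ZNF146, whose protein consists almost only of fingers, had by far the highest level per length, with a control FPKM of 38.4 ± 2.80 (SD, n = 3). It was followed by ZNF581 with 15.2 ± 0.715, ZNF787 with 13.2 ± 0.955, ZNF302 with 11.8 ± 0.364 and ZNF580 with 10.4 ± 0.899. The control libraries of ZNF302, at 11.4 to 12.1, and of ZNF580, at 9.64 to 11.4, overlapped marginally, so these neighbours in the order did not differ beyond their spread, while the other neighbouring pairs among the 5 did not overlap. ZNF302 was the only one of these 5 with a KRAB match. ZNF581 and ZNF580 overlap each other and CCDC106 on the same strand, and 12.7% of the 100-base windows of ZNF581 also occur in another gene, so their split is uncertain. In the LINC00996 group ZNF146 had an FPKM of 40.7 ± 4.73 and in the AP001189.3 group 34.6 ± 0.696. In CPM its AP001189.3 values, 141.6 to 147.1, lay below the control values, 152.8 to 174.7, but the difference was not called (log2 fold change −0.15, adjusted p = 0.0606 in edgeR's quasi-likelihood test). The longest tested member, ZNF431 with 14132 bases, had a control FPKM of 0.589 ± 0.0597, and the shortest, ZNF524 with 1360 bases, 9.41 ± 1.46. Neither was called in any comparison.

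The libraries carried trends with GC content and gene length that also ran through the members. The deviation of each gene from its mean over the 9 libraries was taken on the log2 CPM scale, and its rank correlation with GC content over 16560 genes is given as a description only, since all genes of a library share its preparation. This correlation was −0.00, −0.24 and −0.28 in control replicates 1 to 3, 0.43, −0.24 and −0.42 in LINC00996 replicates 1 to 3, and 0.35, 0.22 and 0.20 in AP001189.3 replicates 1 to 3. Over the 171 members it was −0.06, −0.28 and −0.38, then 0.37, −0.15 and −0.29, and then 0.34, 0.22 and 0.19, in the same order. All 3 AP001189.3 libraries were thus shifted toward GC-rich genes, whereas the LINC00996 libraries differed among themselves, with replicate 1 on the opposite side from replicates 2 and 3.

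**Figure D2:**
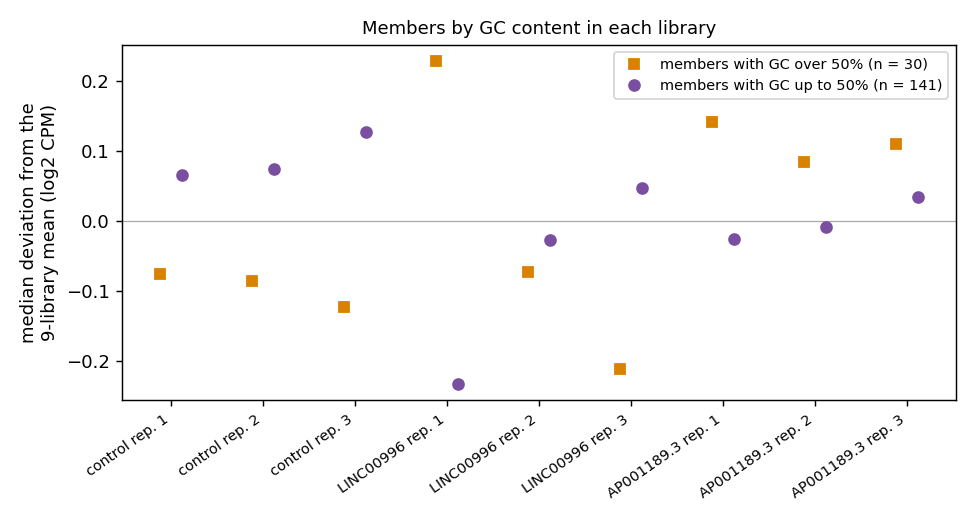
Median deviation from the 9-library mean (y axis, log2 CPM) in each library (x axis) for members with GC content over 50% (squares, n = 30) and up to 50% (circles, n = 141). In LINC00996 replicate 1 the GC-rich members stood 0.23 above and the GC-poor members 0.23 below the mean, and in LINC00996 replicate 3 the GC-rich members stood 0.21 below it.

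With gene length the same correlation over all genes was 0.11 to 0.16 in the control libraries, −0.05, −0.06 and −0.04 in the AP001189.3 libraries, and −0.22, −0.06 and 0.03 in LINC00996 replicates 1 to 3. Length and GC content were themselves related over the 171 members, with a rank correlation of −0.44. The median deviation of the members was 0.05 to 0.09 in the control libraries, 0.00 to 0.05 in the AP001189.3 libraries, and −0.12, −0.04 and 0.01 in LINC00996 replicates 1 to 3.

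LINC00996 against control asked which genes move with this lncRNA. Among the 170 tested members, 13 were lower and 4 were higher in the LINC00996 libraries at an adjusted p under 0.05 (edgeR's quasi-likelihood test, adjusted over all tested genes). All 13 lower members carried a KRAB match, as did 138 of the 170 tested, and the 5 with the smallest adjusted p among those without overlap were ZNF766, ZNF350, ZNF551, ZNF274 and ZNF772, with log2 fold changes of −1.04 to −0.46. The 4 higher members were ZNF584, ZNF428, ZNF749 and ZNF446. These 17 of 170 members compared with 22.3% of the 16097 genes tested, with 11.6% of all genes called lower and 10.7% called higher. The values of the groups did not overlap for 52 of 170 members, or 30.6%, against 40.4% of all genes. The median log2 fold change of the members was −0.13, beside 0.01 over all tested genes.

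ZNF766 had 47.9, 50.7 and 51.3 CPM in the control libraries, 25.8, 29.3 and 34.1 in the LINC00996 libraries and 46.3, 41.8 and 43.6 in the AP001189.3 libraries. Each LINC00996 value lay below all others. Its log2 fold change against control was −0.75 (SE 0.12, adjusted p = 0.00103 in edgeR's quasi-likelihood test), and against AP001189.3 it was −0.57 (SE 0.12, adjusted p = 0.00665, edgeR). AP001189.3 against control gave −0.19, which was not called (adjusted p = 0.063, edgeR).

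ZNF350, also known as ZBRK1, is a KRAB repressor that binds BRCA1. It had 8.54, 9.47 and 9.04 CPM in the control libraries, 3.56, 5.21 and 4.44 with LINC00996 and 7.16, 6.84 and 8.68 with AP001189.3. The LINC00996 libraries were again the lowest 3 of the 9. The log2 fold change was −1.04 against control (SE 0.18, adjusted p = 0.00146, edgeR) and −0.79 against AP001189.3 (SE 0.19, adjusted p = 0.0114, edgeR). ZNF350 overlaps the antisense gene ZNF350-AS1 in position, and the counting is not stated to use strand. Of the 2239 windows of its longest transcript, 0 occur in another gene. Whether reads of the antisense gene were counted for ZNF350 outside that transcript was not tested.

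ZNF551 fell from 17.8, 19.1 and 19.8 CPM in the control libraries to 12.1, 12.7 and 12.5 with LINC00996 (log2 fold change −0.61, SE 0.12, adjusted p = 0.00413, edgeR). With AP001189.3 it had 15.1, 14.3 and 16.8 CPM, which also lay below every control value (log2 fold change −0.30, SE 0.11, adjusted p = 0.048, edgeR). ZNF551 was the only member called lower against control with both lncRNAs. The 2 comparisons share the control libraries, and the difference between LINC00996 and AP001189.3 was not called for it (log2 fold change −0.31, adjusted p = 0.0936, edgeR). Its AP001189.3 call was lost in DESeq2 (adjusted p = 0.0951), without the count filter, with all libraries in 1 fit, with the GC adjustment, and without control replicate 2 or 3 or AP001189.3 replicate 1 or 2. It overlaps the coding genes ZNF154 and AC003006.1.

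ZNF274 binds the 3′ ends of zinc finger genes and brings SETDB1 to them. It had 32.6, 30.5 and 30.9 CPM in the control libraries, 23.3, 20.9 and 24.0 with LINC00996 and 30.1, 33.02 and 32.2 with AP001189.3. The control and AP001189.3 values intermingled and the LINC00996 values lay below both. The log2 fold change was −0.46 against control (SE 0.11, adjusted p = 0.011, edgeR) and −0.49 against AP001189.3 (SE 0.11, adjusted p = 0.0081, edgeR). ZNF274 overlaps no other gene and shares no 100-base window with another one. Its call against control was lost without control replicate 1 and without LINC00996 replicate 2.

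ZNF772 had 7.01, 8.10 and 5.18 CPM in the control libraries, 3.45, 4.13 and 4.06 with LINC00996 and 6.51, 5.93 and 7.47 with AP001189.3. The LINC00996 libraries were the lowest 3 here too. The log2 fold change was −0.80 against control (SE 0.20, adjusted p = 0.0148, edgeR) and −0.78 against AP001189.3 (SE 0.17, adjusted p = 0.00832, edgeR). The call against control was lost without control replicate 1 or 2. ZNF772 overlaps AC004076.1, a coding gene on the same strand that also reaches ZNF749 on the other strand.

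**Figure D3:**
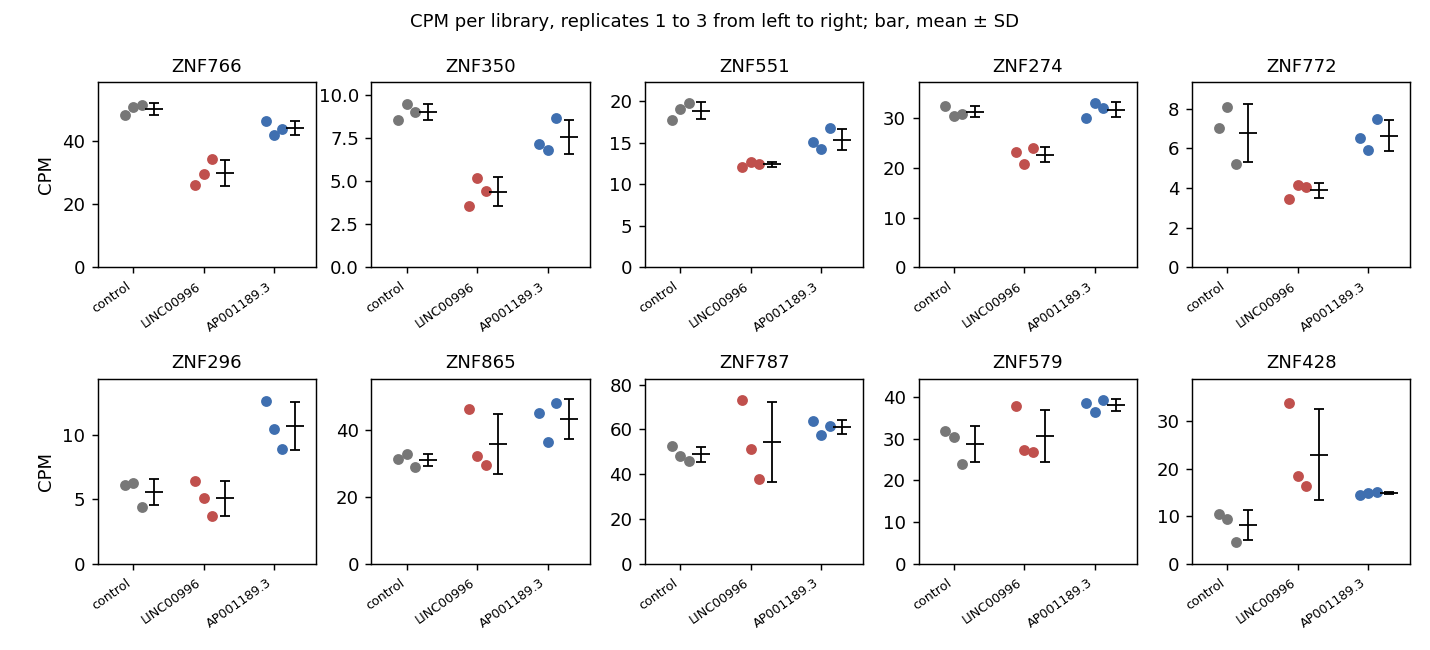
CPM (y axis, from 0) of 10 members in the 3 groups (x axis). Points are libraries, with replicates 1 to 3 from left to right, and bars give the mean ± SD of 3 libraries. For ZNF766, ZNF350, ZNF551, ZNF274 and ZNF772 the 3 LINC00996 libraries are the lowest of the 9, and for ZNF296 the 3 AP001189.3 libraries are the highest.

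The other 8 lower members were ZNF28, ZNF264, ZNF160, ZNF585B, ZNF549, ZNF557, ZNF222 and ZNF761, with log2 fold changes of −1.57 (ZNF28) to −0.47 (ZNF761). They fall outside the 5 with the smallest adjusted p and are named to account for every call. ZNF28 was a low gene, with a mean of 1.66 CPM in the control group and 0.551 with LINC00996. The values of ZNF222 overlapped between the groups. ZNF585B is uncertain, since 17.0% of its windows occur in another gene and it overlaps coding genes on both strands. ZNF28 overlaps ZNF468, ZNF222 the coding gene AC067968.1 and ZNF761 the pseudogene TPM3P9, each on the same strand, and ZNF549 overlaps ZNF550 on the other strand.

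Among the higher members, ZNF584 had 11.3, 10.3 and 8.47 CPM in the control libraries and 16.2, 14.5 and 16.1 with LINC00996 (log2 fold change 0.64, SE 0.14, adjusted p = 0.0081, edgeR). ZNF749 had 4.89, 5.42 and 4.55 CPM against 6.80, 7.88 and 8.13 (log2 fold change 0.62, SE 0.17, adjusted p = 0.0191, edgeR), a call that was lost when control replicate 1 or 3 or LINC00996 replicate 2 or 3 was left out. Both carry a KRAB match and lie in cluster 16, as ZNF772 and ZNF551 do, so members of a single array moved in both directions.

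ZNF428, a short gene of 1803 bases with a single finger, had 10.4, 9.41 and 4.49 CPM in the control libraries, 33.9, 18.4 and 16.4 with LINC00996 and 14.5, 14.98 and 15.1 with AP001189.3. It was the only member called higher against control with both lncRNAs, with log2 fold changes of 1.51 (SE 0.34, adjusted p = 0.0135, edgeR) and 0.88 (SE 0.26, adjusted p = 0.0486, edgeR). LINC00996 replicate 1 and control replicate 3 were its extreme libraries, and without LINC00996 replicate 1 its log2 fold change with LINC00996 was 1.11 and was still called. ZNF428 overlaps SRRM5 on the other strand, and 8.30% of its windows occur in another gene. ZNF446 was the fourth, with a log2 fold change of 0.68 (adjusted p = 0.0435, edgeR), but its values overlapped between the groups and 53.4% of its windows occur in another gene, so it is uncertain.

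Without LINC00996 replicate 1, 18 members were lower and 8 higher, 16 of the 17 calls were kept, and the median of the members was −0.09, or 15.2% of the members called, while 33.2% of all genes were then called. More of these calls were lost without other libraries. Without control replicate 1 only 6 of the 17 were kept, and 9 were kept without control replicate 2, control replicate 3 or LINC00996 replicate 2, while 14 were kept without LINC00996 replicate 3. The direction of all 17 was the same in each case. The contrast by GC content was not present without LINC00996 replicate 1. For members with GC content over 50% the median change was 0.09 on the log2 scale with it and −0.09 without it, and members up to 50% had −0.16 with it and −0.09 without it. The KRAB members had a median of −0.16 and the others 0.08 in all libraries, and −0.10 and −0.06 without replicate 1, when 1 member without a KRAB match was also lower.

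Among position clusters, cluster 15 had 5 of 20 tested members lower with LINC00996 and none higher, or 25% called, and cluster 16 had 5 lower and 3 higher of 54, or 14.8%, beside 22.3% of all genes. The median log2 fold change was −0.39 in cluster 15, where 18 of 20 tested members had a negative value, and −0.08 in cluster 16. It was −0.23 in cluster 2, −0.24 in cluster 3, −0.17 in cluster 9, −0.13 in cluster 12, −0.12 in cluster 8 and 0.05 in cluster 5. Without LINC00996 replicate 1 the median of cluster 15 was −0.26 with 6 of 21 members lower, or 28.6% against 33.2% of all genes. The medians were then −0.17 in cluster 2, −0.13 in cluster 3, −0.09 in cluster 9, −0.07 in cluster 12, −0.10 in cluster 16 and 0.13 in cluster 5, and that of cluster 8 turned from −0.12 to 0.00. These are descriptions, since neighbours in an array share sequence and are not independent.

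By gene length, the members' median log2 fold change with LINC00996 was 0.13, −0.11, −0.18 and −0.21 from the shortest to the longest of 4 classes, divided at the quartiles over tested coding genes. The other coding genes of the same classes had 0.15, 0.06, −0.02 and −0.08. Both followed length in the same direction, and in each class the median of the members lay below that of the other genes. Without LINC00996 replicate 1 the members had 0.03, −0.09, −0.10 and −0.08 and the other genes 0.07, 0.04, −0.01 and −0.06. By GC content the members had −0.16, −0.15, −0.11 and 0.11 from the poorest to the richest of 4 such classes, and the other genes −0.02, −0.00, 0.04 and 0.06. With LINC00996 replicate 1 left out the members had −0.07, −0.09, −0.09 and −0.09 and the other genes 0.08, 0.03, −0.02 and −0.09, so the trend of the other genes with GC content turned with this library. With the libraries adjusted for GC content, 24 members were lower and 7 higher, and all 17 calls were kept, with 37.4% of all genes then called. With an adjustment for gene length 10 were lower and 5 higher, and 14 of the 17 calls were kept, with 22.7% of all genes called.

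**Figure D4:**
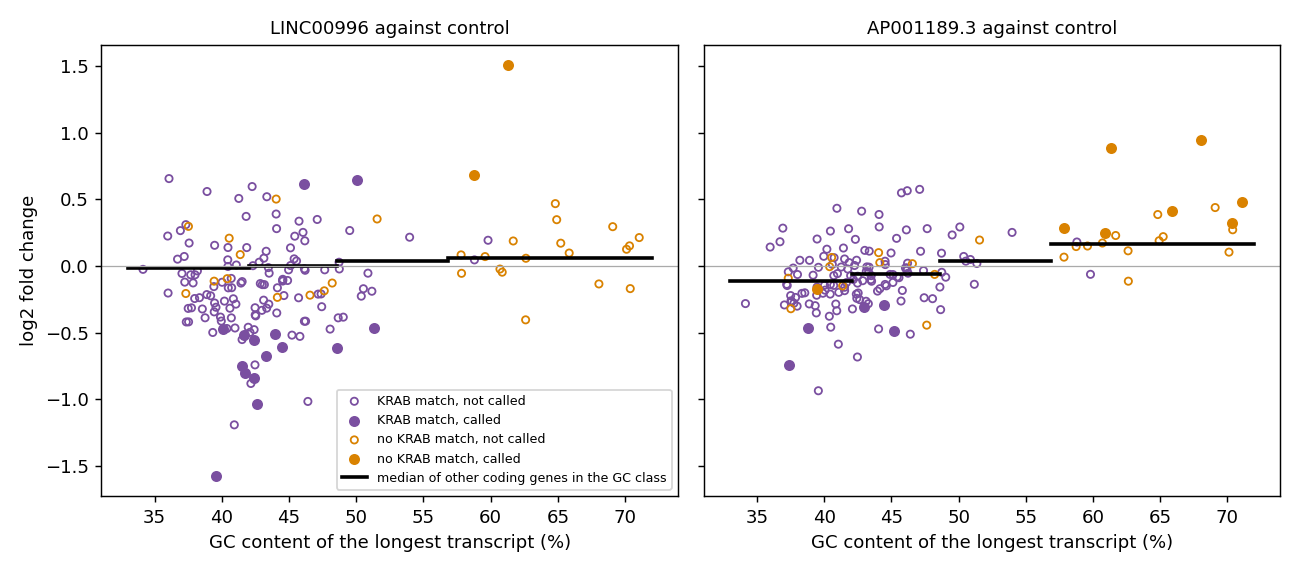
Log2 fold change (y axis) of each tested member against the GC content of its longest transcript (x axis, %) for both lncRNAs against control, with KRAB members in purple, members without a match in orange and called members filled. Black lines give the median of the other coding genes in each of 4 GC classes, from −0.11 to 0.16 with AP001189.3 and from −0.02 to 0.06 with LINC00996.

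AP001189.3 against control asked the same of the other lncRNA. Of 169 tested members, 7 were higher and 6 lower in the AP001189.3 libraries. All 7 higher members, ZNF296, ZNF865, ZNF787, ZNF579, ZNF444, ZNF574 and ZNF428, lacked a KRAB match, as did 32 of the 169 tested, and had a GC content of 57.8% to 71.1%. The 6 lower members, ZNF558, ZNF530, ZNF708, ZNF230, ZNF507 and ZNF551, had 37.4% to 45.2%, and 5 of them carried a KRAB match. The share called was 7.69% of the members against 19.8% of the 16023 genes tested, with 11.4% of all genes higher and 8.49% lower. Groups did not overlap for 42 of 169 members, or 24.9%, against 35.2% of all genes. The median log2 fold change of the members was −0.06, beside −0.00 over all genes. With library size alone as the scaling, 6 members were higher and 9 lower, while over all genes the calls went from 1819 higher and 1361 lower to 1608 and 1719. Of the 13 calls, 5 were kept without control replicate 2, 6 without AP001189.3 replicate 1 or 2, 8 without AP001189.3 replicate 3, 9 without control replicate 3 and 12 without control replicate 1.

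ZNF296 had 6.07, 6.23 and 4.38 CPM in the control libraries, 6.41, 5.08 and 3.68 with LINC00996 and 12.6, 10.5 and 8.92 with AP001189.3. Every AP001189.3 value lay above all others, while the control and LINC00996 values overlapped. The log2 fold change was 0.94 against control (SE 0.16, adjusted p = 0.000125, edgeR), and LINC00996 against AP001189.3 gave −1.08 (SE 0.21, adjusted p = 0.00339, edgeR). Both calls held under each other test, scaling, filter, depth, replicate block and offset tried, and with each library left out, with log2 fold changes against control of 0.61 to 1.06. ZNF296 overlaps GEMIN7-AS1 on the same strand.

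ZNF865 had 31.1, 32.7 and 28.97 CPM in the control libraries and 45.0, 36.4 and 47.9 with AP001189.3 (log2 fold change 0.48, SE 0.09, adjusted p = 0.000428, edgeR). ZNF787 had 52.5, 48.2 and 45.7 CPM against 63.7, 57.6 and 61.5 (log2 fold change 0.32, SE 0.07, adjusted p = 0.0017, edgeR). In LINC00996 replicate 1 these 2 genes stood at 46.1 and 73.3 CPM, and in LINC00996 replicates 2 and 3 at 32.1 and 29.3 for ZNF865 and at 51.3 and 38.0 for ZNF787. The high LINC00996 library was thus the same library that was shifted toward GC-rich genes.

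ZNF579 had 31.8, 30.5 and 23.9 CPM in the control libraries and 38.7, 36.4 and 39.3 with AP001189.3 (log2 fold change 0.41, SE 0.09, adjusted p = 0.00233, edgeR). ZNF444 regulates the scavenger receptor gene SCARF1 in endothelial cells, and its CPM of 42.7, 35.7 and 39.2 compared with 46.9, 47.4 and 49.3 (log2 fold change 0.29, SE 0.08, adjusted p = 0.00765, edgeR). For both genes all 3 AP001189.3 values lay above all control values.

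Among the lower members, ZNF558 had 31.2, 28.7 and 29.7 CPM in the control libraries and 25.5, 21.4 and 25.3 with AP001189.3 (log2 fold change −0.31, SE 0.09, adjusted p = 0.015, edgeR). ZNF708 was low, at 2.59, 2.87 and 3.69 CPM against 1.89, 1.63 and 1.94 (log2 fold change −0.74, SE 0.25, adjusted p = 0.0397, edgeR). ZNF530 and ZNF230 had log2 fold changes of −0.49 and −0.46, and ZNF507, the only lower member without a KRAB match, had −0.17. Groups did not overlap for any of these 5. Of the 6 lower calls, only that of ZNF558 held in DESeq2 (adjusted p = 0.0284). That of ZNF230 was also lost with any single library left out, and that of ZNF558 without AP001189.3 replicate 2.

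These calls moved with GC content. The members' median log2 fold change was −0.15, −0.06, 0.04 and 0.22 from the GC-poorest to the GC-richest class, and the other coding genes of these classes had −0.11, −0.06, 0.04 and 0.16. In the GC-richest class, 7 of 22 members were called higher and none lower, and of the other genes 888 of 3329 were called higher. With the libraries adjusted for GC content, 2 members were higher and none lower (edgeR, with 15.3% of all genes then called), these being ZNF296 and ZNF841, and of the 13 calls only that of ZNF296 was kept. The log2 fold change of ZNF787 then went from 0.32 to −0.01. A fit of all 9 libraries together, without any adjustment, kept only the ZNF296 call, with no other member higher and none lower. All 13 kept their direction there, and the median of the members was −0.06. That fit includes LINC00996 replicate 1. No share over all genes is given for it, so the loss of calls cannot be read as particular to the members. The KRAB members had a median of −0.08 and the others 0.15 as the libraries stood, and −0.03 and 0.01 after the GC adjustment. The GC shift was present in all 3 AP001189.3 libraries, so it and the lncRNA cannot be told apart in this design.

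LINC00996 against AP001189.3 compares the lncRNAs without the control libraries. Of 170 tested members 8 were lower and 1 was higher in the LINC00996 libraries, or 5.29% against 21.4% of the 16095 genes tested (12.1% lower and 9.38% higher). Groups did not overlap for 43 members, or 25.3%, against 39.2% of all genes. The median of the members was −0.09, beside 0.02 over all genes. The lower members were ZNF296, ZNF766, ZNF274, ZNF772, ZNF350, ZNF229, ZNF224 and ZNF628. The comparison shares the LINC00996 libraries with the one against control, in which ZNF766, ZNF274, ZNF772 and ZNF350 were low, and the AP001189.3 libraries with the other, in which ZNF296 was high. ZNF714 of cluster 5 was the higher one, at 7.68, 9.53 and 8.18 CPM with LINC00996 and 5.68, 5.86 and 4.98 with AP001189.3 (log2 fold change 0.61, SE 0.16, adjusted p = 0.017, edgeR). Its control values, 7.13, 6.05 and 7.43, lay between them. Of the 9 calls, 3 were kept without AP001189.3 replicate 3, 5 without AP001189.3 replicate 1 or 2 or LINC00996 replicate 2, 7 without LINC00996 replicate 3 and all 9 without LINC00996 replicate 1. With library size alone as the scaling, 5 were lower and 4 higher, while over all genes the calls went from 1942 lower and 1510 higher to 1667 and 2129. Without LINC00996 replicate 1 there were 21 lower and 11 higher, or 18.8% of the members against 41.6% of all genes. In that case 13 of the 30 members with GC content over 50% were lower, ZNF865, ZNF787, ZNF579 and ZNF444 among them. In the GC-richest class 11 of 22 members and 1434 of 3363 other coding genes were lower, so the members were near the other genes of like GC content.

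The members with known roles included several that could not be followed in A549. ZNF91, which represses SVA and L1 elements, had 0 to 0.592 CPM, and ZNF93, which represses L1 elements, had no count in any library, as had ZNF257. ZNF808, which binds MER11 elements and acts in pancreas development, and ZNF382, a repressor silenced in several tumours, stayed at or under 0.374 CPM. None of these 5 passed the filter. ZNF331, an imprinted gene, had 23.7 to 25.4 CPM in the control libraries, 22.8 to 25.6 with LINC00996 and 23.6 to 24.4 with AP001189.3, with log2 fold changes of −0.02 and −0.03 against control. ZNF568, whose mouse counterpart represses a placental Igf2 transcript, had 0.768 to 1.76 CPM and was not called. ZNF420 (APAK), an inhibitor of p53-driven apoptosis, had log2 fold changes of −0.32 with LINC00996 and −0.20 with AP001189.3 and was not called. ZNF224, a repressor of the aldolase A gene, had 12.99 to 16.04 CPM with LINC00996 and 18.5 to 19.3 with AP001189.3 (log2 fold change −0.39, adjusted p = 0.0428, edgeR), but the call was lost in DESeq2 (adjusted p = 0.0633) and 47.6% of its windows occur in another gene.

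The genes of the KAP1 corepressor pathway, through which KRAB proteins act, were all tested. With LINC00996, 6 of 24 were higher and 1 lower than in the control libraries, or 29.2% called beside 22.3% of all genes. The median log2 fold change was 0.18 over the list and 0.01 over all genes. Most of the list had a log2 CPM over 4, a level at which 28.7% of all genes were called in this comparison. At that level 30.1% were called for AP001189.3 against control and 27.1% between the lncRNAs. TRIM28 itself had 409.9, 404.8 and 442.9 CPM in the control libraries, 487.7, 448.8 and 405.2 with LINC00996 and 431.9, 446.7 and 438.7 with AP001189.3. SETDB1 had 29.7 to 31.7, 29.9 to 32.9 and 29.6 to 33.1 CPM. Neither was called in any comparison, and their values overlapped between groups. CBX1, an HP1 protein, had 73.5 to 78.5 CPM in the control libraries, 105.6 to 114.3 with LINC00996 and 85.9 to 89.8 with AP001189.3. Its log2 fold changes were 0.56 (adjusted p = 0.0012), 0.23 (adjusted p = 0.00604) and, between the lncRNAs, 0.32 (adjusted p = 0.0206, all edgeR). UHRF1, which directs maintenance DNA methylation, had 35.9 to 36.9 CPM in the control libraries and 53.9 to 77.6 with LINC00996 (log2 fold change 0.77, adjusted p = 0.00236, edgeR). CHD3, a chromatin remodeller of the NuRD complex, had a log2 fold change of 0.56 (adjusted p = 0.0025, edgeR), and CBX5, also an HP1 protein, one of 0.61 (adjusted p = 0.00323, edgeR). CBX5 differed between the lncRNAs as well (0.59, adjusted p = 0.00515, edgeR). With AP001189.3, 3 of 24 were higher and 2 lower, or 20.8% beside 19.8% of all genes, and ATF7IP, the partner of SETDB1, had the smallest adjusted p (log2 fold change −0.31, adjusted p = 0.00198, edgeR). Between the lncRNAs, 5 were higher with LINC00996 and none lower, or 20.8% beside 21.4% of all genes. With LINC00996 replicate 1 left out the list had 14 higher and 1 lower against control, or 62.5% beside 33.2% of all genes. Against AP001189.3 it had 14 higher and 2 lower, or 66.7% beside 41.6%. Of all genes with a log2 CPM over 4, 46.8% and 57.3% were called in these 2 comparisons. The log2 fold changes against control were then 0.57 for UHRF1, 0.53 for CBX1, 0.75 for CBX5 and 0.45 for CHD3, each called.

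Zinc finger genes elsewhere in the genome and other coding genes of the same chromosome give the setting of these values. With LINC00996, 9 of 227 tested ZNF genes of other chromosomes were higher and 16 lower, with a median log2 fold change of −0.05, and of 797 other coding genes of chromosome 19 there were 111 higher and 86 lower, with a median of 0.08. With AP001189.3 the ZNF genes of other chromosomes had 17 higher and 12 lower and a median of −0.03, and the other chromosome 19 genes 239 higher and 18 lower of 792 and a median of 0.17. Without LINC00996 replicate 1 the LINC00996 values were 11 higher, 28 lower and a median of −0.02 for the ZNF genes of other chromosomes, and 110 higher, 184 lower and a median of −0.06 for the other chromosome 19 genes, so the latter turned with this library. At a like expression level the share of calls was also given side by side. For LINC00996 against control, 13.2% of the 38 members with a mean log2 CPM over 4 were called, against 28.7% of the 8527 genes at that level, and 12.9% of the 85 members between 2 and 4, against 20.8% of 3391 genes. These shares were 23.7% against 46.8% and 15.3% against 27.6% without LINC00996 replicate 1.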

How the data were processed

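RNA-seq of 9 A549 libraries was analysed, 3 per plasmid group as titles and treatment labels give them. The authors deposited raw counts per gene, made per the labels with HISAT2 2.0.5 and featureCounts 1.5.0-p3 on GRCh38 (150 bp paired reads, with a library kit not stated to be stranded), and FPKM values per library, which were used only to compare levels between genes. Gene coordinates equalled GENCODE 29, which gave transcripts, GC content and coding sequences. Members and gene lists were chosen with earlier results of these data known.

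Each comparison was tested on its 6 libraries with edgeR 4.0.16 (R 4.3.3; filterByExpr, TMM, robust quasi-likelihood test, Benjamini-Hochberg over all tested genes), and genes with an adjusted p under 0.05 were called. The study's own general methods describe DESeq2. CPM uses TMM factors of all 9 libraries, with a prior count of 2 for log2 CPM. Totals of 15272450 to 18125447 counts limit the precision, and the floor of 3 counts covers counting error only. Clusters, GC and length classes and gene lists are described by counts and medians. Shared sequence was the percentage of 100-base windows of a member's longest transcript that occur in another gene's transcript. The procedure was checked on counts simulated with a fixed dispersion and without trends of GC content or gene length. That check does not cover such trends or a library that stands apart.

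For each comparison the text names the 5 higher and 5 lower members of smallest adjusted p without overlap, then the 5 of highest control FPKM, the longest and the shortest tested member, members with a known role, and TRIM28, SETDB1 and up to 3 called corepressor genes. Other called members are named to account for every call. Alternatives were DESeq2 1.42.0, other scalings, filters and depth, 1 fit of all libraries, left-out libraries, a replicate block, and loess offsets (span 0.75) for length and GC content.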

Additional observations from a re-analysis of the deposited data

How the results depend on the processing

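Of the 246 members, 75 were tested in no comparison, and 37 had no count in any library. Thinning to the smallest library changed the tested members from 170 to 167 for LINC00996 against control. Whether more depth would bring in further members was not tested. Whether the replicate numbers pair the libraries was not settled. The deviations of same-numbered libraries correlated at −0.02 to 0.16, and those of libraries with other numbers at −0.13 to 0.06. With the replicate block the members higher and lower were 4 and 19 (LINC00996 against control), 8 and 7 (AP001189.3 against control) and 3 and 12 (LINC00996 against AP001189.3), and all 17, 13 and 9 calls were kept, while 27.96%, 21.6% and 23.4% of all genes were called.

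For LINC00996 against control, 13 members were lower and 4 higher, with a median log2 fold change of −0.13. All libraries in 1 fit gave 21 lower, the GC offset 24 lower and 7 higher (37.4% of all genes called), and the length and GC offset 23 lower with a median of −0.0731 (35.7% of all genes). No share over all genes is given for the 1 fit, so its count cannot be read as particular to the members. An added absolute log2 fold change of at least 1 left 2 lower and 1 higher. With single libraries left out there were 4 to 19 lower and 2 to 8 higher, and the median was −0.15 to −0.09. Over all genes 33.2% were called without LINC00996 replicate 1. Shares are not given for the other left-out libraries, so their counts cannot be read as particular to the members. The fewest lower members, 4 to 6, came without a control library, and 6 to 16 of the 17 calls were kept.

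For AP001189.3 against control, 7 members were higher and 6 lower, with a median of −0.06. The lower ones numbered 1 in DESeq2, 1 without the count filter and 2 with thinned libraries. Shares over all genes are not given for these fits, so the losses cannot be read as particular to the members. The median was −0.0828 with library size scaling. All libraries in 1 fit gave 1 higher and 0 lower, the GC offset 2 and 0 with a median of −0.0277, the length and GC offset 2 and 0 with a median of −0.00533, and the added fold-change threshold 0 and 0. With the GC offset 15.3% of all genes were called, and with the length and GC offset 14.7%. No such share is given for the 1 fit or the added threshold. Single libraries left out gave 4 to 9 higher and 0 to 11 lower, with a median of −0.0757 to −0.0295. No share over all genes is given for these left-out fits, so a change in the counts cannot be read as particular to the members. The fewest lower members, 0 to 2, came without an AP001189.3 library or without control replicate 2 or 3, and 11 came without control replicate 1, with 5 to 12 of the 13 calls kept. ZNF787 reversed to −0.0124 with the GC offset.

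For LINC00996 against AP001189.3, 8 members were lower and 1 higher, with a median of −0.09. DESeq2 gave 5 lower and 2 higher of 207 tested members, and library size scaling 5 lower and 4 higher with a median of −0.0309. There were 3 higher with no filter, 4 with the length offset and 5 with the length offset and replicate block. Over all genes 23.6% were called with library size scaling and 24.3% with the length offset. No such share is given for the remaining fits of these, so their counts cannot be read as particular to the members. The GC offset gave 20 lower and 8 higher, the length and GC offset 19 lower and 8 higher (37.1% and 36.7% of all genes called), and the added threshold 1 lower and 0 higher. Single libraries left out gave 3 to 21 lower and 0 to 11 higher, the highest of both without LINC00996 replicate 1, and a median of −0.12 to −0.06, with 3 to 9 of the 9 calls kept. Without that library 41.6% of all genes were called, and no such share is given for the other left-out libraries. The cause of these shifts was not tested. For single named genes, 1273 alternative values kept direction and side of the threshold, 95 lost and 35 gained a call, and with libraries left out 569 kept, 58 lost and 21 gained one.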
